A study of Mus musculus with 10 samples.

Results

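The VEGF and PDGF families supply growth factor signals to the vessels and to the connective tissue of an organ, and 10 of their genes were followed here across the cell types of the developing mouse incisor. They were taken by symbol from the 32285 genes of each matrix and comprised 5 ligand genes (Vegfa, Vegfc, Vegfd, Pdgfa and Pdgfc) and 5 receptor genes (Kdr, Flt1, Flt4, Pdgfra and Pdgfrb). All 10 had transcripts at each stage. The question was which cell lineage held the ligand transcripts and which held the receptor transcripts.

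The study profiled single cells with a droplet assay that reads the 3′ end of each transcript and counts molecules by unique molecular identifiers (UMIs). Tissue came from wild type NMRI embryos with no allele or agent added, and consisted of whole mandibles at the first stage (E11.5, in embryonic days) and of dissected buds of the lower incisor at the later stages, E14.5 and E16.5. The labels list 4, 4 and 2 samples for these stages, but each stage was held as 1 matrix in which cells could not be assigned to a sample. Stage, matrix and, at E11.5, dissected tissue therefore cannot be told apart.

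After cells with fewer than 700 detected genes or more than 20% mitochondrial UMIs were left out, 6573, 6091 and 4511 cells remained, in order of stage, with a median of 5664, 3471 and 6260 UMIs per cell. Lineage was called from lists of 8 marker genes, none of which was a VEGF or PDGF gene, and 80.5%, 85.8% and 90.1% of cells received a call. Epithelial cells numbered 7, 581 and 1442, mesenchymal cells 5022, 4340 and 2474, endothelial cells 66, 148 and 118, and immune cells 51, 121 and 25. The mesenchyme further held 664 cells with cartilage markers at E11.5, 506 and 567 with osteogenic markers at E14.5 and E16.5, and 58 with mural markers, those of the cells that wrap vessels, at E16.5. All 8 markers of its own list were detected in the endothelium, the mesenchyme and the epithelium at each stage. As the call used these same markers, this does not test it. The E11.5 mesenchyme also held UMIs of all 8 epithelial markers, at 3.59 CPM summed against 2043 for its own list. Groups under 50 cells entered no ratio, apart from 43 cells in a recount of the Sox2 split, and their levels are given as a description beside their number of cells. In all, 13 to 17 barcodes were shared between any pair of matrices.

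VEGF ligands are secreted proteins that guide the growth of blood and lymphatic vessels by binding receptor tyrosine kinases on endothelial cells. Vegfa signals mainly through Kdr, while Flt1 binds Vegfa with high affinity and can withhold it from Kdr, and Vegfc and Vegfd act chiefly through Flt4, the receptor best known from lymphatic vessels. PDGF ligands act on connective tissue cells: Pdgfa and Pdgfc signal through Pdgfra, and Pdgfrb, whose classical ligand is Pdgfb from the endothelium, is known for recruiting mural cells. In many organs, teeth among them, the epithelium and the mesenchyme exchange such paracrine signals while vessels grow into the mesenchyme.

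Levels are given as UMIs of the gene relative to all UMIs of the same cells, in the usual CPM scale, with an exact Poisson 95% interval in parentheses. As each stage was 1 matrix, there was no replicate spread and no test, and all intervals, including those of ratios and of shares of cells, cover the error of counting UMIs or cells alone. Ratios were taken between cell groups for the same gene, and none between the levels of different genes. In these dissociated cells a lower summed level may mean fewer cells with the transcript or less of it per cell, so the share of cells with a UMI stands beside it.

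Promoters of 3 genes are shown because their genes carry the clearest contrast of the data: Kdr and Flt1, whose UMIs lay in the endothelium, and Pdgfra, whose UMIs lay in the mesenchyme although it is the closest of the 10 genes to Kdr on chromosome 5. Pdgfra (chr5:75152292-75198215, plus strand) and Kdr (chr5:75932827-75978458, minus strand) were separated by 735 kb in the GRCm38 annotation, and Flt1 (chr5:147561604-147726011, minus strand) and Pdgfa (chr5:138976014-138997370, minus strand) lay on the same chromosome, so that 4 of the 10 genes shared it. Each line holds the 250 bases before a RefSeq start in GRCm38.p6, 5′ to 3′ on the strand of the gene, at chr5:75978456-75978705 for Kdr, chr5:147726012-147726261 for Flt1 and chr5:75152001-75152250 for Pdgfra. Capitals mark GGAA or its reverse complement TTCC, the core letters bound by ETS factors, a family known for its role in endothelial genes.
Kdr: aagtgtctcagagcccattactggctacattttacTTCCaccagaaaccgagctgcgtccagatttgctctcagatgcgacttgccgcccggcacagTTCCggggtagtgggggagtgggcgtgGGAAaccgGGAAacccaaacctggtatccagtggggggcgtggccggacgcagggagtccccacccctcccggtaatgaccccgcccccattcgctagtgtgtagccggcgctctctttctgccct
Flt1: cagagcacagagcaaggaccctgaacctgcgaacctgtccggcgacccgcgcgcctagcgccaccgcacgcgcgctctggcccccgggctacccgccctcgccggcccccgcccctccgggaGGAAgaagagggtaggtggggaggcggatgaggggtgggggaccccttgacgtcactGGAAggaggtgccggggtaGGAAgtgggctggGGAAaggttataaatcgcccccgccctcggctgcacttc
Pdgfra: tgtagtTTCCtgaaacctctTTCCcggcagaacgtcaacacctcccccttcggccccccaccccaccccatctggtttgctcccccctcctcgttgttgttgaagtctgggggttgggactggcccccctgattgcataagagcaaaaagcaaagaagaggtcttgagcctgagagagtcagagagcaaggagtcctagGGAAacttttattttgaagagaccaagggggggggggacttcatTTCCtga
The windows of all 3 genes held 4 matches, beside a median of 3 over all 32851 RefSeq windows of this length, 93.4% of which held at least 1. The letters thus did not separate the endothelial pair from Pdgfra. The 3 windows differed in CG pairs, with 16 and 23 for Kdr and Flt1, 4 for Pdgfra and a median of 6 over all windows. CG pairs did not set the endothelial receptors apart from the other members. Flt4 held 16, Vegfc 30, Pdgfa 19 and 28 at its 2 starts, Vegfa 11 and 7, Pdgfc 3 and Vegfd 2. TATAAA stood once in the Flt1 window, in neither the Kdr nor the Pdgfra window, and in 12.4% of all windows on either strand.

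Kdr, the main signalling receptor of blood vessels, was counted almost wholly in the endothelium among called cells. Its level reached 604 CPM in the endothelium at E11.5 (551 to 661), 500.5 at E14.5 (451 to 554), then 527 at E16.5 (484 to 573). In the mesenchyme it was 0.541, 0.686 and 0.379 CPM at the same stages, and in the epithelium 0.374 at E14.5, then 0.174 at E16.5, the latter from 3 UMIs in 1442 cells. Among called groups of at least 50 cells the endothelium stood far above the others at each stage, and the highest upper limit of another was 13.02 CPM, in immune cells of E11.5. Over all other cells together the ratio was 614 at E11.5 (453 to 850), 301 at E14.5 (220.2 to 419), then 555 at E16.5 (398 to 797). A Kdr UMI was found in 83.3%, 77.7% and 88.1% of endothelial cells and in 0.378%, 0.254% and 0.283% of mesenchymal cells, at median depths of 7109, 3458 and 6027 UMIs against 6447, 3396 and 6014. With every cell thinned to 2000 UMIs the endothelial shares were 73.7%, 55.1% and 66.1%, and the mesenchymal shares 0.148%, 0.105% and 0.0410%.

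Flt1, the decoy and signalling receptor for Vegfa, followed Kdr with 459 CPM (413 to 509) in the endothelium at E11.5, 565 (512 to 622) at E14.5, then 562 (518 to 609) at E16.5. Its ratio to all other cells was 370.2 (279.9 to 497), 179.7 (142 to 229.7) and 267 (212 to 341). Outside the endothelium Flt1 was seen more widely than Kdr: 3.92 CPM (2.43 to 5.996) in the epithelium at E14.5, then 2.03 (1.41 to 2.82) at E16.5, 14.02 (5.15 to 30.5) in the 51 immune cells of E11.5 and 13.5 (5.83 to 26.6) in the mural cells of E16.5. The last 2 values rested on 6 and 8 UMIs, each in 4 cells. Endothelial markers summed to 55.7 CPM in those mural cells and to 17.7 in the mesenchyme outside the mural, cartilage and osteogenic groups, and the part of endothelial RNA in the Flt1 value was not tested. In the epithelium the Flt1 level was 0.694% of the endothelial level at E14.5 and 0.361% at E16.5, beside 0.403% and 0.372% for the 8 endothelial markers summed. Egfl7 alone stood at 1.997% and 1.89%, and the other 7 markers between 0% and 0.327% at E14.5 and between 0% and 0.251% at E16.5. Kdr, by the same measure, stood at 0.0746% and 0.0330%.

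Flt4 (chr11:49609263-49652739, plus strand), the receptor for Vegfc and Vegfd, had a lower count but the same distribution. Its endothelial level was 75.5 CPM (57.5 to 97.4), 55.3 (39.7 to 75.0) and 74.1 (58.6 to 92.5) at the 3 stages. The whole mesenchyme yielded 4, 4 and 1 UMIs of Flt4, and the epithelium none at E14.5 or E16.5, where a level up to 0.56 and 0.174 CPM, that of 3 counts, could have been missed. A Flt4 UMI was found in 37.9%, 23.0% and 35.6% of endothelial cells. Among lymphatic genes, Prox1 and Lyve1 were rare in the same cells, whereas Mmrn1 was not at E11.5 and E16.5. Prox1, the transcription factor that sets lymphatic fate, had a UMI in 3, 2 and 4 endothelial cells, and Lyve1, a receptor of lymphatic vessels and macrophages, gave 0, 0 and 1 UMIs there. Mmrn1, another gene of lymphatic and of some blood vessels, was at 74.2 CPM (56.4 to 96.0) at E11.5, at 0 of 741303 UMIs at E14.5 and at 30.4 CPM (20.8 to 42.9) at E16.5. Most Flt4 UMIs of the endothelium lay in cells with no Prox1 UMI, 54 of 59 at E11.5, 39 of 41 at E14.5 and 74 of 78 at E16.5. Such cells, however, were 63 of 66, 146 of 148 and 114 of 118 endothelial cells. By level, Flt4 was at 72.8, 54.35 and 72.7 CPM in them. The few cells with a Prox1 UMI were at 126, 84.35 and 114 CPM, from 5, 2 and 4 UMIs, with intervals that overlapped.

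**Figure D1:**
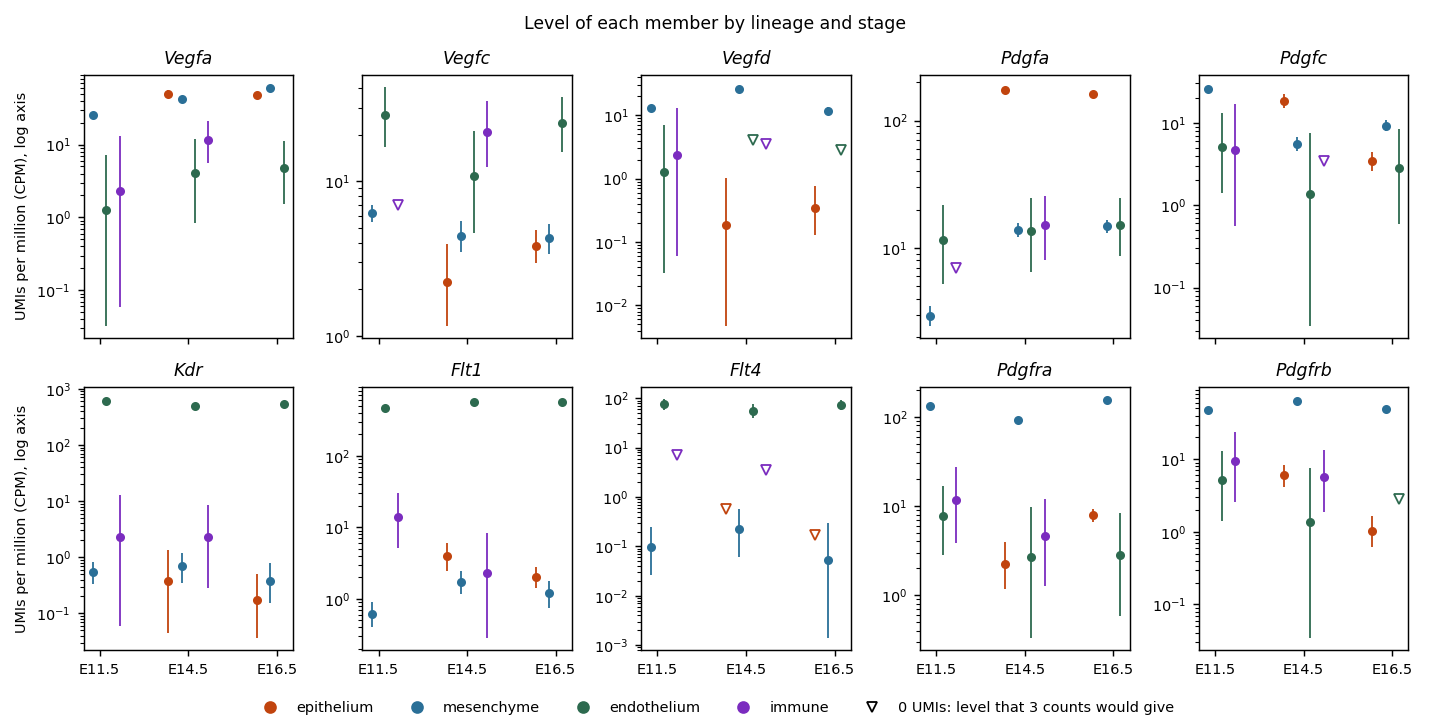
Level of each of the 10 genes (CPM, log axis, one panel per gene) at the 3 stages in the epithelium, mesenchyme, endothelium and immune cells with at least 50 cells; bars are 95% counting intervals and open triangles stand for 0 UMIs at the level 3 counts would give. Kdr, Flt1 and Flt4 lie far higher in the endothelium than elsewhere, and Pdgfra and Pdgfrb highest in the mesenchyme. Pdgfa lies highest in the epithelium at E14.5 and E16.5, at 174 and 162 CPM.

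Taken over the called cells, the endothelium held 95.2%, 95.6% and 98.2% of the Kdr UMIs, 92.1%, 88.8% and 91.2% of those of Flt1 and 93.7%, 91.1% and 98.7% of those of Flt4. It held only 1.82%, 3.01% and 2.84% of all UMIs. The shares leave out uncalled cells, which also held UMIs of Kdr and Flt1. The part of all Kdr and Flt1 UMIs that lay in cells called endothelial was therefore lower. Uncalled cells may themselves be endothelial. At E11.5 the cluster named endothelium held 125 cells, of which 64 had the endothelial call. The lineage of the uncalled cells was not tested. At E11.5, 3 of the 5 receptor genes and 1 of the 5 ligand genes were at least 2-fold higher in the endothelium than in all other cells, beside 12.8% of the 12329 genes with at least 50 counts, and 2 receptors and 3 ligands were at least 2-fold lower, beside 12.3%. At E14.5 the higher genes were 2 of 4 receptors and 1 of 5 ligands (10.8% of all genes), and the lower ones 2 receptors and 4 ligands (13.0%), with Flt4 left out at 48 UMIs. At E16.5, 3 of 5 receptors and 1 of 5 ligands were higher (10.2%), and 2 receptors and 4 ligands were lower (15.9%). The higher receptors were Kdr, Flt1 and, where counted, Flt4, the lower ones Pdgfra and Pdgfrb, and the higher ligand was Vegfc at each stage. The median log2 ratio of the receptors was 8.53, 1.999 and 8.06, and that of all genes 0, -0.03 and -0.12.

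Within the endothelium the VEGF receptors stayed within 2-fold between stages. Kdr at E14.5 stood at 0.829 times its E11.5 level (0.721 to 0.951), Flt1 at 1.23 times (1.07 to 1.42) and Flt4 at 0.733 times (0.479 to 1.11). From E14.5 to E16.5 the ratios were 1.05 (0.922 to 1.21), 0.995 (0.876 to 1.13) and 1.34 (0.907 to 2.01), so that all 3 intervals held 1. That made 0 of 3 receptors past 2-fold in either step, beside 2.80% higher and 4.62% lower among 4071 genes in the first step and 2.11% higher and 0.645% lower among 4497 in the second. Without the 5% of cells with the most UMIs the first Kdr step was -0.00 on the log2 scale in place of -0.27, and that of Flt4, -0.45, became 0.54 after thinning. Of the endothelial cells, 26, 38 and 48 carried UMIs of at least 2 of 6 arterial genes, too few for a ratio. Kdr was at 629, 510.3 and 569.8 CPM in them and at 560.1, 495 and 474 in the others.

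Vegfa (chr17:46016993-46032369, minus strand), the main blood vessel growth factor, was found on both sides of the tooth but hardly in the endothelium. The mesenchyme had 25.6 CPM (24.1 to 27.2) at E11.5, 42.1 (39.1 to 45.3) at E14.5, then 58.9 (55.4 to 62.5) at E16.5. The epithelium had 48.9 (43.2 to 55.2) at E14.5, then 47.4 (44.2 to 50.8) at E16.5. The endothelium gave 1, 3 and 5 UMIs, or 1.28, 4.05 and 4.75 CPM. Mesenchyme and epithelium were thus close at both bud stages, with the epithelium at 1.16 times the mesenchyme at E14.5 (1.01 to 1.34) and the mesenchyme at 1.24 times the epithelium at E16.5 (1.13 to 1.36). By counts, the mesenchyme held 72.8% and the epithelium 25.9% of the Vegfa UMIs at E14.5, and 56.8% and 42.7% at E16.5. Their shares of all UMIs were close to these, at 71.0% and 21.7% at E14.5, and 49.8% and 46.5% at E16.5. A Vegfa UMI was found in 14.7% of mesenchymal and 29.4% of epithelial cells at E14.5, at median depths of 3396 and 5890 UMIs. Thinned to 2000 UMIs, the shares were 8.49% and 8.68%. Immune cells of E14.5 stood at 11.6 CPM (5.55 to 21.3).

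Vegfc (chr8:54077606-54187096, plus strand), a lymphatic growth factor, was a scarce transcript, highest in the endothelium at E11.5 and E16.5 and in immune cells at E14.5. Endothelial cells had 26.9 CPM (16.6 to 41.1), 10.8 (4.66 to 21.3) and 23.7 (15.4 to 35.0) from 21, 8 and 25 UMIs. The ratio to all other cells was 4.39 (2.68 to 6.84) at E11.5, 2.41 (1.02 to 4.90) at E14.5, then 5.97 (3.75 to 9.15) at E16.5. The mesenchyme was at 6.22, 4.40 and 4.27 CPM and the epithelium at 2.24 and 3.82. Because the mesenchyme was so much larger, it nevertheless held 92.0%, 67.0% and 45.7% of the Vegfc UMIs, and the endothelium 7.64%, 6.96% and 14.45%. Of all UMIs the mesenchyme held 94.5%, 71.0% and 49.8%, and the endothelium 1.82%, 3.01% and 2.84%. The epithelium held 10.4% of the Vegfc UMIs at E14.5 and 38.15% at E16.5, beside 21.7% and 46.5% of all UMIs. Immune cells of E14.5 were at 20.8 CPM (12.3 to 32.9) from 18 UMIs in 14 cells, an interval that overlapped that of the endothelium. Of the Vegfc UMIs of the endothelium, 18 of 21, 5 of 8 and 21 of 25 lay in the cells with at least 2 arterial genes, whose median depth was 15020, 5374 and 8985 UMIs against 4694, 3156 and 5344 in the others. By level these cells were at 35.9, 19.8 and 35.8 CPM against 10.7, 6.14 and 8.57, with intervals that overlapped at E11.5 and E14.5. At E11.5, 1 endothelial cell held 8 of the 21 UMIs.

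Vegfd (chrX:164373378-164402650, plus strand), the second ligand of Flt4, was a mesenchymal transcript. Its level there was 12.8 CPM (11.7 to 13.96) at E11.5, 25.9 (23.6 to 28.5) at E14.5, then 11.8 (10.3 to 13.5) at E16.5. The epithelium gave 1 and 6 UMIs at E14.5 and E16.5, and the endothelium 1, 0 and 0. The mesenchyme held 99.6%, 99.6% and 97.3% of the Vegfd UMIs, beside 94.5%, 71.0% and 49.8% of all UMIs. Within the mesenchyme Vegfd was lower in cells with cartilage markers at E11.5, at 0.371 times the remaining mesenchyme (0.267 to 0.505), and in cells with osteogenic markers, at 0.721 times (0.525 to 0.971) at E14.5 and 0.494 times (0.343 to 0.698) at E16.5. The 58 mural cells of E16.5 held 1 UMI. The 5 cells with osteogenic markers at E11.5 went the other way, at 57.0 CPM (20.9 to 124) from 6 UMIs in 2 cells against 14.6 in the remaining mesenchyme.

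**Figure D2:**
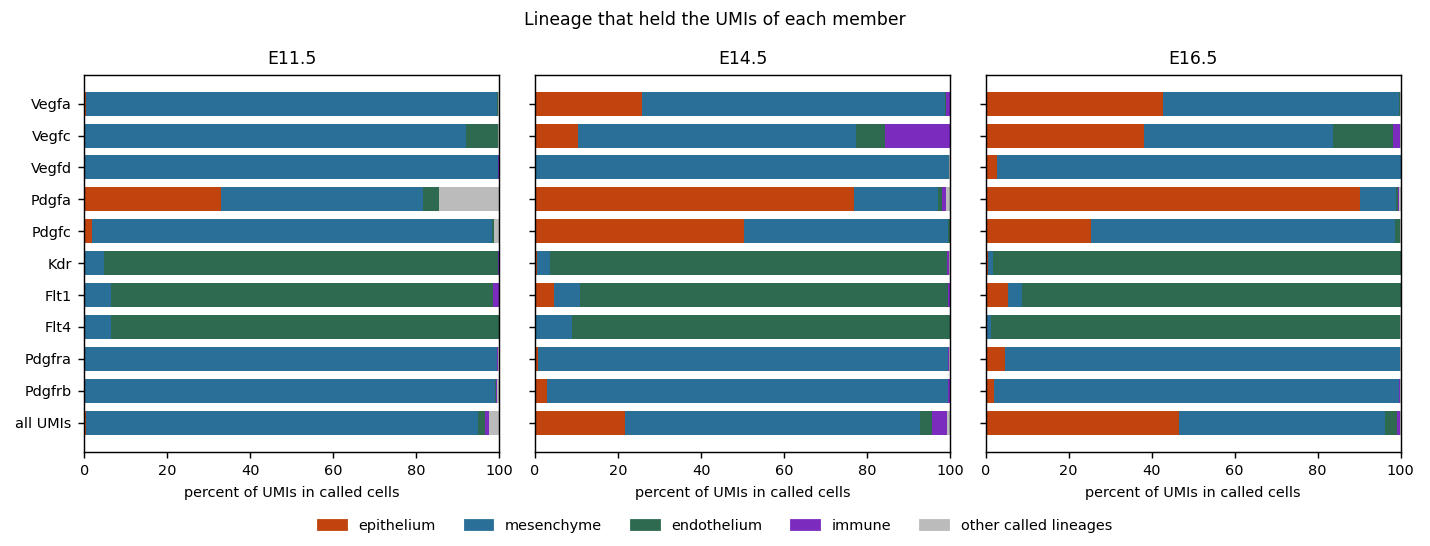
Share of the UMIs of each gene (percent of its UMIs in called cells) that lay in the epithelium, mesenchyme, endothelium, immune cells and all other called lineages at the 3 stages, with the shares of all UMIs as the lowest bar. The Kdr, Flt1 and Flt4 bars are mostly endothelial, those of Vegfd, Pdgfra and Pdgfrb almost wholly mesenchymal, and the epithelium holds 77.0% and 90.1% of the Pdgfa UMIs at E14.5 and E16.5.

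Pdgfa, the ligand of Pdgfra, was mainly an epithelial transcript at the bud stages. It reached 174 CPM (163 to 185) in the epithelium at E14.5, then 162 (156 to 168) at E16.5. In the mesenchyme it was at 2.95 CPM (2.45 to 3.53) at E11.5, 13.9 (12.3 to 15.8) at E14.5, then 14.9 (13.2 to 16.7) at E16.5. The epithelium was 12.4-fold (10.8 to 14.4) and 10.9-fold (9.63 to 12.4) above the mesenchyme at the bud stages, and held 77.0% and 90.1% of the Pdgfa UMIs against 21.7% and 46.5% of all UMIs. A Pdgfa UMI was found in 60.9% and 65.1% of epithelial cells and in 4.82% and 9.38% of mesenchymal cells, or, after thinning, in 27.1% and 25.3% against 2.63% and 2.54%. Endothelial cells stood at 11.52, 13.5 and 15.2 CPM, with intervals that overlapped those of the mesenchyme at E14.5 and E16.5. The level in the mesenchyme was 8.04% and 9.17% of that in the epithelium, beside 2.67% and 3.53% for the 8 epithelial markers summed, which ranged between 1.80% and 5.70% one by one. At E11.5 only 7 cells were called epithelial, and they held 81 UMIs of Pdgfa, all 7 cells with at least 1. That was 32.9% of the Pdgfa UMIs of the stage, beside 0.2845% of all UMIs. The mesenchyme held 48.8% of them and 21 muscle cells 13.4%. The 58 mural cells of E16.5 were at 47.2 CPM (31.4 to 68.2), 3.32 times the remaining mesenchyme (2.14 to 4.97). Uncalled cells were at 28.8, 91.3 and 103 CPM, so the share given for the epithelium leaves out some Pdgfa.

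Pdgfc (chr3:81036416-81214040, plus strand), the other ligand of Pdgfra, stood higher in the epithelium at E14.5 and in the mesenchyme at E16.5. The mesenchyme had 25.9 CPM (24.4 to 27.6) at E11.5, 5.54 (4.50 to 6.76) at E14.5, then 9.25 (7.92 to 10.8) at E16.5. The 7 epithelial cells of E11.5 were at 172 CPM (106 to 262) from 21 UMIs in 6 cells, above the mesenchyme of that stage. The epithelium had 18.5 CPM (15.03 to 22.5) at E14.5, then 3.42 (2.60 to 4.41) at E16.5. At E14.5 the epithelium stood 3.34-fold (2.50 to 4.46) above the mesenchyme, and at E16.5 the mesenchyme stood 2.71-fold (2.003 to 3.70) above the epithelium. A Pdgfc UMI was found in 13.8% and 3.33% of epithelial cells and in 2.07% and 5.82% of mesenchymal cells, and after thinning in 4.34% and 0.653% against 1.23% and 1.68%. In the mesenchyme of E16.5 it was higher in cells with osteogenic markers, at 14.1 CPM against 6.99 in the remaining mesenchyme, a ratio of 2.02 (1.47 to 2.78). At E14.5 the same ratio was 1.75 (1.03 to 2.84).

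Pdgfra, the receptor of Pdgfa and Pdgfc, was the receptor of the mesenchyme at large. Its level there was 133 CPM (129 to 137) at E11.5, 91.1 (86.7 to 95.7) at E14.5, then 153 (148 to 159) at E16.5. The epithelium was at 2.24 CPM (1.16 to 3.92) at E14.5, then 7.82 (6.56 to 9.26) at E16.5, and the endothelium at 7.68, 2.70 and 2.85. In the epithelium of E16.5 this was 5.11% of the mesenchymal level, beside 3.39% for the mesenchymal markers summed. One by one, Col5a1 and Col1a2 stood at 34.5% and 12.8%, and the other 6 markers between 0.384% and 1.04%. The mesenchyme was thus 40.6-fold (23.2 to 78.8) and 19.6-fold (16.48 to 23.4) above the epithelium. A Pdgfra UMI was found in 55.1%, 27.1% and 57.0% of mesenchymal cells, and in 22.9%, 16.3% and 25.7% after thinning, so the E14.5 share lay closer to the others at equal depth. In the epithelium the shares were 1.89% and 5.76%, and 0.181% and 1.23% after thinning. Among mesenchymal groups of at least 50 cells Pdgfra was highest in cells with osteogenic markers at E14.5, at 118 CPM (105 to 133), and at E16.5, at 171 (160.4 to 182). The 12 cells with cartilage markers at E16.5 were at 189 CPM from 27 UMIs. The 5 cells with osteogenic markers at E11.5 were at 38.0 CPM from 4 UMIs, against 127 in the remaining mesenchyme. Cells with cartilage markers at E11.5 were at 158 (150.0 to 167), or 1.25 times the remaining mesenchyme (1.17 to 1.33). Mural cells were lowest at E16.5 with 105 (80.2 to 134), 0.713 times the remaining mesenchyme (0.544 to 0.919).

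Pdgfrb, the other PDGF receptor, was also mesenchymal but had a second peak in mural cells. The mesenchyme was at 48.2 CPM (46.1 to 50.4), 63.9 (60.2 to 67.8) and 48.7 (45.6 to 52.0). The 58 mural cells of E16.5 reached 179 CPM (146 to 216), 3.86 times the remaining mesenchyme (3.10 to 4.76), with a UMI in 65.5% of cells against 23.8%. The endothelium was at 5.12 and 1.35 CPM and then at 0 of 1052778 UMIs, and the epithelium at 5.98 (4.09 to 8.44) and 1.04 (0.618 to 1.65). The epithelial level at E14.5 was 9.35% of that in the mesenchyme, beside 4.03% for the mesenchymal markers summed and 2.46% for Pdgfra. One by one, Col5a1 and Col1a2 stood at 27.9% and 15.4%, and the other 6 markers between 0% and 1.94%. Within that epithelium the 88 cells with a UMI of Shh, a signal of the enamel knot and inner enamel epithelium, were at 13.2 CPM against 4.03 in the rest, a ratio of 3.28 (1.52 to 6.97) from 15 and 17 UMIs. Mural markers summed to 115 CPM in them and to 37.5 in the rest, and their part in the Pdgfrb value was not tested. Both receptors were detected together in 981 of 5022 mesenchymal cells at E11.5, 256 of 4340 at E14.5 and 404 of 2474 at E16.5, and neither in 1744, 2525 and 817. Such counts depend on depth, a median of 6447, 3396 and 6014 UMIs in these cells, and were not taken at equal depth.

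**Figure D3:**
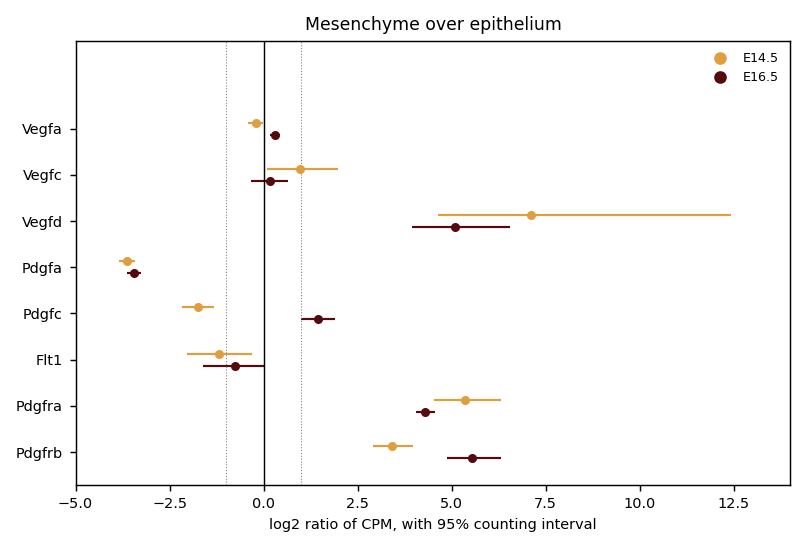
Ratio of the level in the mesenchyme to that in the epithelium (log2, horizontal axis) at E14.5 and E16.5 for the 8 genes with enough counts; bars are 95% counting intervals, the solid line marks equal levels and dotted lines 2-fold. Pdgfra, Pdgfrb and Vegfd lie to the right (mesenchyme higher), Pdgfa to the left at -3.64 and -3.45, and Pdgfc lies left at E14.5 (-1.74) and right at E16.5 (1.44).

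The mesenchyme and the epithelium of E14.5 differed in most members. In the mesenchyme, 2 of 3 receptors (Pdgfra and Pdgfrb) and 1 of 5 ligands (Vegfd) were at least 2-fold higher, beside 11.7% of 11342 genes, and 1 receptor (Flt1) and 2 ligands (Pdgfa and Pdgfc) were at least 2-fold lower, beside 9.35%. At E16.5, 2 of 3 receptors (Pdgfra and Pdgfrb) and 2 of 5 ligands (Vegfd and Pdgfc) were higher, beside 12.1% of 12596 genes, and 1 ligand (Pdgfa) and no receptor was lower, beside 10.3%. The median log2 ratio of the ligands was -0.22 and 0.31, and that of all genes -0.01 and -0.07. Vegfa and Vegfc stayed within 2-fold at both stages.

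Between E11.5 and E14.5 Pdgfa and Pdgfc had the widest ratios in the mesenchyme, in opposite directions. Pdgfa was 4.73-fold (3.78 to 5.93) and Vegfd 2.02-fold (1.78 to 2.30) higher at E14.5, Vegfa was 1.65-fold (1.497 to 1.81) higher, and Pdgfc was 4.68-fold (3.80 to 5.82) lower. Pdgfra at E14.5 was at 0.684 (0.647 to 0.724) and Pdgfrb at 1.33 (1.23 to 1.43) times the earlier level. In counts, 2 of 5 ligands and 1 of 3 receptors (Flt1, from 25 to 30 UMIs at 0.615 and 1.72 CPM) passed 2-fold upward, beside 10.4% of 12689 genes, and 1 ligand and no receptor downward, beside 11.3%. The median log2 ratio of all genes in this step was -0.21. The Flt1 step was 1.48 on the log2 scale and 0.04 when each cell was given equal weight. That of Pdgfa was 2.24, and 1.32 with cells grouped by clusters in place of marker counts. These steps compare whole mandibles with incisor buds. A change within one kind of mesenchyme and a change in the kinds of mesenchyme dissected therefore cannot be told apart. Epithelial markers summed to 3.59 CPM in the mesenchyme of E11.5 and to 47.7 in that of E14.5. The part of epithelial RNA in the Pdgfa step was not tested.

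From E14.5 to E16.5, both in buds, Vegfd in the mesenchyme was 2.20-fold (1.87 to 2.60) lower, while Pdgfra was 1.68-fold (1.58 to 1.79), Pdgfc 1.67-fold (1.29 to 2.16) and Vegfa 1.40-fold (1.27 to 1.54) higher. Pdgfa and Vegfc had intervals that held equal levels. No ligand or receptor passed 2-fold upward, beside 7.52% of 12213 genes, and 1 of 5 ligands and none of 3 receptors downward, beside 2.14%. The median of all genes was 0.17. Cells with osteogenic markers were 506 of 4340 mesenchymal cells at E14.5 and 567 of 2474 at E16.5. In the mesenchyme outside the mural, cartilage and osteogenic groups Vegfd was at 27.16 and then 14.48 CPM, short of 2-fold. Pdgfc was at 5.03 and then 6.99 CPM there. In the cells with osteogenic markers Vegfd was at 19.58 and then 7.15 CPM, and Pdgfc at 8.79 and then 14.13. The part of the osteogenic share in the steps of the mesenchyme was not tested. In the epithelium the same step left Vegfa at 0.969 times (0.843 to 1.12) and Pdgfa at 0.935 times (0.868 to 1.01) its E14.5 level. Pdgfc was 5.41-fold (3.88 to 7.60) and Pdgfrb 5.73-fold (3.12 to 10.8) lower, and Pdgfra was 3.49-fold (1.93 to 6.92) higher. That made 1 of 4 ligands and 1 of 3 receptors lower by 2-fold or more, beside 2.09% of 11372 genes, and no ligand and 1 receptor higher, beside 7.48%. The Pdgfra step of the epithelium was 1.80 on the log2 scale, 0.65 with equal weight for each cell and 2.93 after thinning. That of Pdgfrb was -2.52, and -1.54 with cells grouped by clusters. Cells with a Shh UMI were 88 of 581 epithelial cells at E14.5 and 461 of 1442 at E16.5. Pdgfc was at 7.92 and then 2.26 CPM in them, and at 21.3 and then 4.14 CPM in the other epithelial cells. The part of a change in the kinds of epithelial cells in the steps of the epithelium was not tested.

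**Figure D4:**
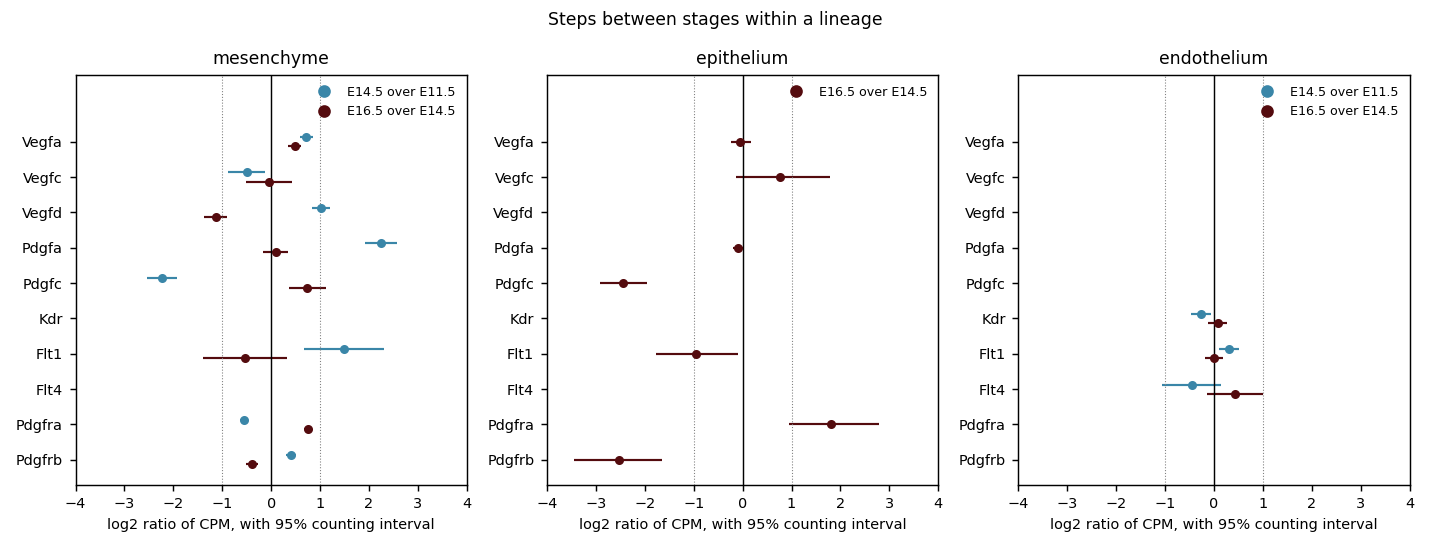
Ratio between stages (log2, horizontal axis) of each gene with enough counts in the mesenchyme, epithelium and endothelium; bars are 95% counting intervals and dotted lines mark 2-fold. Pdgfc goes from -2.23 to 0.74 in the mesenchyme and stands at -2.44 in the epithelium, while Kdr, Flt1 and Flt4 in the endothelium stay within 2-fold.

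The study followed epithelial cells that express Sox2, a transcription factor of dental epithelial stem cells, so the 10 genes were also read in epithelial cells with and without a Sox2 UMI. At E16.5 the 113 cells with one had 17.2 CPM of Vegfc against 1.86 in the other 1329, a ratio of 9.26 (5.54 to 15.7) from 38 and 28 UMIs. Pdgfc was at 12.2 against 2.13 CPM, a ratio of 5.76 (3.32 to 9.92), and Pdgfra at 23.6 against 5.51, a ratio of 4.28 (2.96 to 6.12). Pdgfa and Vegfa differed less, at 1.35 (1.22 to 1.49) and 1.41 (1.16 to 1.69). At E14.5 the same split, with 147 and 434 cells, gave 2.003 (0.547 to 8.002) for Vegfc, 1.01 (0.661 to 1.53) for Pdgfc and 0.715 (0.158 to 2.67) for Pdgfra, all with intervals that held 1.

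Cells with a Sox2 UMI at E16.5 were deeper, with a median of 13182 UMIs against 7515, and their mesenchymal markers summed to 216 CPM against 128. When epithelial cells with a UMI of any mesenchymal marker were left out, 43 and 729 cells remained. Pdgfra then stood at 27.8 against 4.95 CPM, a ratio of 5.62 (2.84 to 10.7). Vegfc was left with 2 of 38 and 9 of 28 UMIs and a ratio of 2.18 (0.230 to 10.6). Pdgfc was left with 2 of 27 and 11 of 32 UMIs and a ratio of 1.79 (0.192 to 8.19). In the E16.5 epithelium the 8 mesenchymal markers summed to 139 CPM, with Col1a2 at 78.5 and Col5a1 at 36.2. This recount thus cannot tell mesenchymal RNA, collagen transcripts of the epithelium and depth apart. Without the 5% of cells with the most UMIs the ratios were 7.27 (4.38 to 11.9) for Pdgfra, 7.84 (3.85 to 15.6) for Vegfc and 6.47 (2.88 to 13.9) for Pdgfc. With the epithelium named by clusters, in 136 and 1628 cells, they were 2.91 (2.12 to 3.95) for Pdgfra, 9.11 (5.61 to 14.95) for Vegfc and 5.15 (3.05 to 8.60) for Pdgfc. The Pdgfra UMIs of the E16.5 epithelium lay in 83 cells, of which 30 (36.1%) had a Sox2 UMI against 6.11% of the other epithelial cells. Their median depth was 13857 UMIs against 7549, and the 10 cells with most Pdgfra held 41 of the 135 UMIs. These 3 recounts and the description of the 83 cells were chosen after the values had been seen.

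**Figure D5:**
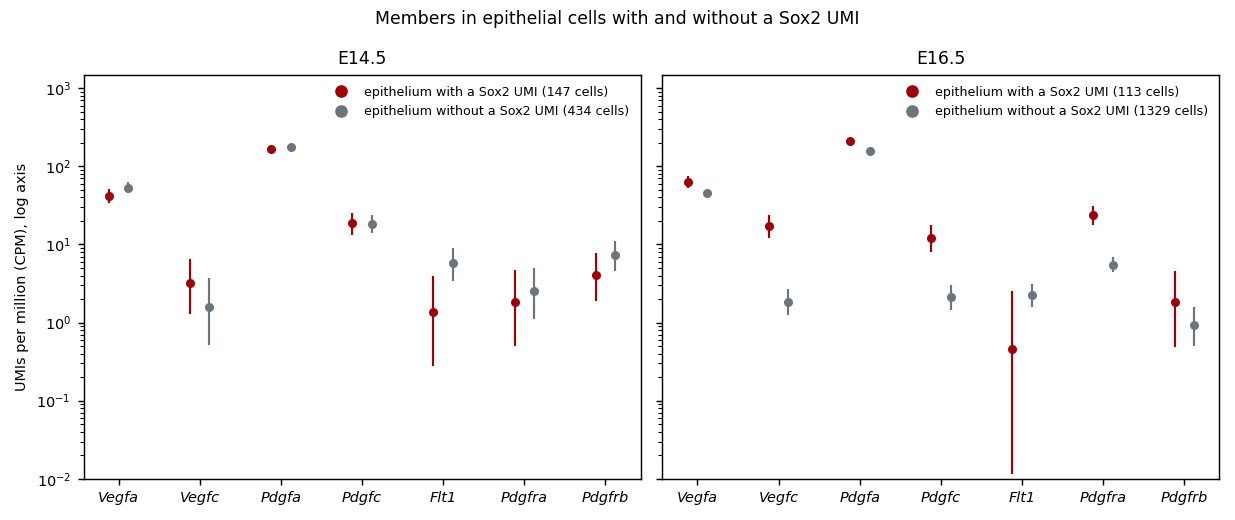
Level (CPM, log axis) of 7 of the genes in epithelial cells with and without a Sox2 UMI at E14.5 and E16.5; bars are 95% counting intervals, and 147 and 434 cells entered at E14.5 and 113 and 1329 at E16.5. At E16.5 Vegfc, Pdgfc and Pdgfra stand higher in the cells with a Sox2 UMI (17.2, 12.2 and 23.6 CPM), whereas at E14.5 the intervals of each of these 3 genes overlap.

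The epithelium was also split by Shh. At E16.5 the 461 cells with a Shh UMI were at 35.6 CPM of Vegfa against 54.8 in the other 981, a ratio of 0.65 (0.556 to 0.757), and at 1.36 against 5.36 CPM of Vegfc, a ratio of 0.254 (0.110 to 0.516). Pdgfa differed little, at 0.938 (0.868 to 1.01). At E14.5 Pdgfc was at 7.92 CPM in 88 cells with a Shh UMI against 21.3 in 493 without, a ratio of 0.371 (0.165 to 0.737). Mesenchymal markers summed to 96.8 CPM with a Shh UMI against 155 without at E14.5, and to 94.5 against 167 at E16.5. Median depths were 7644 against 5749 UMIs and 9016 against 6929. Of the 66 Vegfc UMIs of the E16.5 epithelium, 38 lay in the 113 cells with a Sox2 UMI. The part of mesenchymal RNA, depth and the Sox2 split in these ratios was not tested. By Sox2, Flt1 at E14.5 was at 1.36 CPM in cells with a UMI against 5.71 in the rest, a ratio of 0.238 (0.0450 to 0.817) from 3 and 18 UMIs. Pdgfrb, Vegfa and Pdgfa were also lower in the cells with a Sox2 UMI at that stage, at ratios of 0.56 (0.228 to 1.26), 0.787 (0.604 to 1.02) and 0.93 (0.813 to 1.06), with intervals that held 1.

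The remaining ligands of both families were fixed as a list for comparison. Pdgfb, the classical ligand of Pdgfrb, was endothelial with 149 CPM (123 to 178), 161 (133 to 192) and 113 (93.6 to 135), against 0.197, 0.743 and 0.433 in the mesenchyme. It was also found in immune cells of E14.5 at 130 CPM (107 to 156). Among groups of at least 50 cells, Pdgfb was thus highest in the endothelium, though at E14.5 its interval there overlapped that of immune cells. Its receptor Pdgfrb was highest in mural cells at E16.5. In the same groups Pdgfa was highest in the epithelium at the bud stages, and its receptor Pdgfra in the mesenchyme. Vegfb, a ligand of Flt1, was at 78.4, 74.4 and 91.0 CPM in the mesenchyme and 17.9, 25.6 and 19.0 in the endothelium. Pgf, another Flt1 ligand, was at most 7.14 CPM in the mesenchyme, and Pdgfd at most 7.60 in the endothelium. In counts, 1 of 3, 1 of 3 and 2 of 4 of these genes were at least 2-fold higher in the endothelium at the 3 stages, beside 12.8%, 10.8% and 10.2% of all genes, and 1 was at least 2-fold lower at each, beside 12.3%, 13.0% and 15.9%.

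Co-receptors and processing factors of VEGF split between lineages. Nrp1, which strengthens Vegfa binding to Kdr, was at 196, 256 and 254 CPM in the endothelium and 24.5, 40.9 and 12.1 in the mesenchyme. Nrp2, a co-receptor of Flt4, was not confined to the endothelium. It was at 131, 199.6 and 190.0 CPM in the endothelium, 69.7 and 172 in the epithelium and 485 in immune cells of E14.5. Ccbe1 and Adamts3, needed to process Vegfc into its active form, gave at most 1 UMI in the endothelium at any stage, and Adamts3 reached 16.3 CPM in the mesenchyme of E16.5. Of these 4 genes, 2, 1 and 1 were at least 2-fold higher in the endothelium than in all other cells at the 3 stages, beside 12.8%, 10.8% and 10.2% of all genes, and 0, 0 and 1 at least 2-fold lower, beside 12.3%, 13.0% and 15.9%.

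Genes of endothelial sprouting, a process driven by Kdr signalling, were compared in the same way. They were listed as endothelial genes, so a higher level in the endothelium does not measure Kdr signalling. At least 2-fold higher in the endothelium were 4 of 5, 4 of 5 and 5 of 6 of them, beside 12.8%, 10.8% and 10.2% of all genes, and none was at least 2-fold lower, with median log2 ratios of 7.71, 6.40 and 7.22 beside 0, -0.03 and -0.12 for all genes. Dll4, a Notch ligand of tip cells, was at 38.4, 32.4 and 51.3 CPM, Apln, a peptide ligand, at 39.7, 49.9 and 61.7, and Plxnd1, a semaphorin receptor, at 618, 444 and 515. Angpt2 was the one that did not reach 2-fold upward. Arterial genes were higher in 4 of 4, 2 of 3 and 4 of 5 cases, with Gja4, a gap junction gene, at 65.3, 83.6 and 175 CPM. Lymphatic genes were higher in 2 of 3, 0 of 3 and 1 of 2 cases.

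Genes that respond to low oxygen, as Vegfa does, were compared between the same lineages. At E14.5 none of 9 was at least 2-fold higher in the mesenchyme, beside 11.7% of all genes, and 6 were at least 2-fold lower (Slc2a1, Pgk1, Bnip3, Egln3, Ndrg1 and Pdk1), beside 9.35%, with a median log2 ratio of -1.52 beside -0.01 for all genes. At E16.5 the counts were 0 and 3 of 9, beside 12.1% and 10.3%, with a median of -0.63 beside -0.07. Slc2a1, a glucose transporter, was at 80.1 CPM in the epithelium and 13.03 in the mesenchyme at E14.5, and at 34.5 and 11.7 at E16.5. Vegfa stayed within 2-fold, with ratios of 0.861 and 1.24 between mesenchyme and epithelium. Whether oxygen bears on these levels was not tested. In the endothelium, where Vegfa was at 1.28 to 4.75 CPM, 3 of 8, 2 of 9 and 3 of 9 of these genes were at least 2-fold higher than in all other cells, beside 12.8%, 10.8% and 10.2% of all genes. In the same comparison 1, 2 and 1 were at least 2-fold lower, beside 12.3%, 13.0% and 15.9%, and the median log2 ratios were 0.39, -0.29 and -0.25.

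Genes whose levels ran most like those of a member were sought over 15 groups of at least 50 cells, by Pearson's r of log2(CPM + 10) among 5151 genes. The groups share 3 matrices and are not independent, so r is a description. For Flt4 the closest were She, Klhl4 and Adgrf5 (r of 0.999, 0.999 and 0.998), for Kdr C130074G19Rik, Gimap4 and Klhl4 (0.998 each) and for Flt1 Icam2, Cd93 and Gimap6 (0.995, 0.994 and 0.992). For Pdgfra they were Ddr2, Tmem132c and Sfrp1 (0.98, 0.975 and 0.973), and for Pdgfrb Ednra, Pde3a and Frzb (0.952, 0.949 and 0.945). For Vegfa they were Epha7, Frem1 and Plekha5 (0.967, 0.963 and 0.961) and for Vegfd Pax3, Cxcl14 and Tfap2c (0.937, 0.919 and 0.91). Vegfc and Pdgfc had the least close neighbours, Mgat4b, Pdgfb and Itga5 (0.867, 0.864 and 0.856) and Ptbp2, Axin2 and Rbm6 (0.901, 0.893 and 0.888).

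Among called groups of at least 50 cells, with mural, cartilage and osteogenic cells counted in the mesenchyme, the levels ordered as follows. The epithelium stood highest in Pdgfa at both bud stages and in Pdgfc at E14.5. In Vegfa it stood just above the mesenchyme at E14.5 and just below it at E16.5. The mesenchyme stood highest in Vegfd, Pdgfra and Pdgfrb at each stage and in Pdgfc at E11.5 and E16.5. Smaller groups went past this order in Pdgfa and Pdgfc, as the 7 epithelial cells of E11.5 stood above every larger group in both. In Pdgfa the 21 muscle cells of E11.5 also did so, and the 4 glial cells of E16.5 stood above the epithelium. The endothelium stood highest in Kdr, Flt1 and Flt4 at each stage, in Pdgfa at E11.5 and in Vegfc at E11.5 and E16.5. The Pdgfa level of the endothelium at E11.5 rested on 9 UMIs in 8 cells. Its interval overlapped those of erythroid and immune cells. At E14.5 the Vegfc interval of the endothelium overlapped that of immune cells.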

How the data were processed

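Cells of wild type NMRI mouse embryos had been profiled with the 10x Chromium 3′ v3 assay. The authors deposited 1 matrix of UMI counts per stage, made per the labels with Cell Ranger 4.0.0 and the mm10 genome. The values are raw counts, and no column of another sample was present (0).

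Of 8708, 8192 and 5719 barcodes, barcodes were kept that had 700 or more genes and no more than 20% mitochondrial UMIs, the limits of the study's methods. Kept cells held 47513863, 27765839 and 40024102 UMIs in all, and their total sets the width of the counting intervals. A cell was called to a lineage when at least 3 of 8 markers had a UMI and at least 2 more than of any other list. There were 11 lists, 3 of them (mural, cartilage, osteogenic) within the mesenchyme. No doublet caller was run, and 110, 160 and 263 cells had at least 3 markers of more than 1 list. In all, 1220, 1088 and 510 cells lay at the limit of the call.

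UMIs were summed per stage and lineage and set against all UMIs of the group (CPM). Intervals at 95% were exact Poisson for levels, Clopper-Pearson for shares and conditional binomial for ratios. Groups under 50 cells entered no ratio, apart from 43 cells in a recount of the Sox2 split. Genes with at least 50 counts in both groups together gave the background. A count under 3 in the lower group was set to 3 but never above the other group, a cap added after the counts had been seen because the floor alone could turn a direction. Ratio code was tested on simulated data. Thinning drew 2000 UMIs per cell.

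The named genes were the 10 members, the fixed pathway lists and, for each member, the 3 genes with the highest Pearson r over groups, markers and members left out. Those of Pdgfa are not reported here. Members and lists were chosen with earlier results of these data known. Ccl21a, on 2 rows, was dropped. Promoters came from RefSeq (GRCm38.p6), with a window for 9 members, and gene positions from GENCODE. Other cell filters, marker limits, clusters, depths, scales and count minimums were tried. Python 3.11.15, numpy 2.4.6, scipy 1.17.1, pandas 2.3.3, scanpy 1.11.5 and matplotlib 3.10.9 were used.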

Additional observations from a re-analysis of the deposited data

Results flagged for a closer look

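Pdgfc went in opposite directions in the lineages of the bud. From E14.5 to E16.5 its log2 ratio was 0.74 in the mesenchyme and -2.44 in the epithelium, and neither interval held 0. Its log2 ratio of mesenchyme to epithelium was accordingly -1.74 at E14.5 and 1.44 at E16.5. Vegfa also changed the sign of that ratio, at -0.22 and 0.31, both close to equal levels. With 1 matrix per stage these differences were not tested.

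Groups under 50 cells, which entered no comparison, held members above the highest larger group. At E11.5 the 7 epithelial cells had 662 CPM of Pdgfa (525 to 822) from 81 UMIs in all 7, against 11.52 in the endothelium. They also had 172 CPM of Pdgfc (106 to 262) from 21 UMIs in 6 cells, against 26.2 in cells with cartilage markers. The 21 muscle cells of E11.5 had 188 CPM of Pdgfa (129 to 264) from 33 UMIs in 11 cells. The 5 osteogenic cells of E11.5 had 57.0 CPM of Vegfd (20.9 to 124) from 6 UMIs in 2 cells, against 14.6. At E14.5 the 6 mural cells had 295 CPM of Pdgfrb (157 to 504) from 13 UMIs in 5 cells, against 77.9 in osteogenic cells. At E16.5 the 4 glial cells had 539.7 CPM of Pdgfa (247 to 1024) from 9 UMIs in 3 cells, against 162 in the epithelium. These differences were not tested.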

How the results depend on the processing

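No value changed sign in the named lineage ratios, where 67 of 81 recomputed values moved by less than the counting interval. On the log2 scale, Kdr in the endothelium over all other cells at E11.5 was 8.65 with cells of at least 200 genes and no mitochondrial limit, 8.54 after thinning, 8.79 without the 5% deepest cells and 8.04 with equal weight per cell, against 9.26. At E14.5 it was 8.84 with at least 2 markers, 7.77 with at least 4 and 9.55 with clusters, against 8.23, and at E16.5 it was 8.46 with at least 4 markers and 9.84 with clusters, against 9.12. Pdgfra in the mesenchyme over the epithelium was 4.40 with clusters and 6.75 after thinning at E14.5, against 5.34, and 3.83 with clusters at E16.5, against 4.29. Pdgfa in the epithelium over the mesenchyme at E16.5 was 3.26 with at least 2 markers and 3.26 with clusters, against 3.45. The cause was not tested.

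Of 260 recomputed stage steps of members, 242 stayed within their counting interval. Signs changed only for steps whose interval held equal levels, and of these Flt4 in the endothelium from E11.5 to E14.5 moved most, from -0.45 to 0.54 after thinning, 0.04 without the 5% deepest cells and 0.06 with equal weight per cell. The count of all genes past 2-fold depended on the minimum and the added constant. With 10 CPM added to both sides it was 1489, 1443 and 1557 for the endothelium against all other cells (3100, 2850 and 3375 without), 900 and 1000 for mesenchyme against epithelium (2382 and 2819), 611 and 196 for the steps of the mesenchyme (2756 and 1180), 179 for that of the epithelium (1089) and 178 and 53 for those of the endothelium (302 and 124). With a minimum of 200 counts the same order from mesenchyme against epithelium onward gave 1230, 1675, 1642, 529, 454, 45 and 16. With a minimum of 20 it was 1658 in the epithelium and 867 and 510 in the endothelium.

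No paired analysis was possible because the cells of a stage could not be assigned to samples, and leaving out replicates could not be run for the same reason. Depth limits Flt4, Vegfc and every endothelial ligand value, each from few UMIs. The epithelial step of Vegfc had no value after thinning.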
